A study of Mus musculus with 6 samples.

Results

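The small leucine-rich proteoglycans of the pressure-overloaded mouse heart are described here through 8 genes: Aspn, Bgn, Dcn, Lum, Prelp, Omd, Ogn and Fmod. A gene was measured where a row of the array values was annotated with its symbol and no other, and where several rows were, the brightest on average stood for it. This gave 7 measured genes of 14860 genes in all, while Fmod, which encodes fibromodulin, had no row of its own and has no value here. The left ventricles came from male C57BL/6 mice with no genetic change, 1 mouse per exon array and 2 mice per group. Transverse aortic constriction (TAC), a surgical narrowing of the aortic arch that forces the left ventricle to pump against high pressure, had lasted 4 weeks in the 4 W TAC group and 1 week in the 1 W TAC group, and the Sham group had a sham operation. The 2 Sham mice were the controls of both TAC groups, so the comparisons with Sham share them. For the age of the mice and for how long after the sham operation the control hearts were taken, the sources used here give nothing. Below, values after 4 weeks are those of the 4 W TAC group and values after 1 week those of the 1 W TAC group.

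Small leucine-rich proteoglycans are secreted proteins with a curved, horseshoe-like core of leucine-rich repeats. Most carry sugar chains: chondroitin or dermatan sulfate on class I members such as biglycan and decorin, and keratan sulfate on class II members such as lumican. In the heart they are made chiefly by fibroblasts and lie on collagen fibrils, whose thickness and spacing they help to set, and several of them bind TGF-beta or cell surface receptors.

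The genes lie in groups in the mouse genome. Aspn, Omd and Ogn are neighbours on chromosome 13, Dcn and Lum on chromosome 10, Prelp and Fmod on chromosome 1, and Bgn is on the X chromosome. The 3 neighbours on chromosome 13 lie on the same strand. Aspn had higher log2 ratios after TAC than Omd and Ogn, which were close to each other after 4 weeks (0.46 and 0.4). The promoters of these 3 genes are printed for this reason, and that of Bgn because its gene had the next highest log2 ratio after Aspn. Each runs 5′ to 3′ on the strand of its gene from 250 bases before the start to 50 bases after it (RefSeq, build GRCm38.p6). Capitals mark matches to the TATA-box letters TATAAA, the GC-box letters GGGCGG, the TEAD letters GGAATG or the AP-1 letters TGANTCA on either strand.
Aspn, chr13:49544193-49544492, plus strand: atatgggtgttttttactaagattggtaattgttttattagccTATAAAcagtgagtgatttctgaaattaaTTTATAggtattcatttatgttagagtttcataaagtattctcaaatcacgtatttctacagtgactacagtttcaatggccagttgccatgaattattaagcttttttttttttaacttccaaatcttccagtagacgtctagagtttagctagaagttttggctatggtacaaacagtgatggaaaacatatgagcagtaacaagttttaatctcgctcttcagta
Omd, chr13:49582212-49582511, plus strand: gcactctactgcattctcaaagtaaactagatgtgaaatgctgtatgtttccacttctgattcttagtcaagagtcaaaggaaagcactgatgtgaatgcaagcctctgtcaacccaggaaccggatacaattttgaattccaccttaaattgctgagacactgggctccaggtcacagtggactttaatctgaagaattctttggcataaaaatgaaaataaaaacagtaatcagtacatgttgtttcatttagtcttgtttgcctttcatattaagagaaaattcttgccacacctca
Ogn, chr13:49607765-49608064, plus strand: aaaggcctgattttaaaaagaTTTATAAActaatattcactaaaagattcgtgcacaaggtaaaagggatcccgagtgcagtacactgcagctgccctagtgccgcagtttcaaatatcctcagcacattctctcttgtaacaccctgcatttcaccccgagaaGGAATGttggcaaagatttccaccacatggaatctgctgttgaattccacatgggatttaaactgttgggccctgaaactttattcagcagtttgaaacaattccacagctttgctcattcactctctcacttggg
Bgn, chrX:73483351-73483650, plus strand: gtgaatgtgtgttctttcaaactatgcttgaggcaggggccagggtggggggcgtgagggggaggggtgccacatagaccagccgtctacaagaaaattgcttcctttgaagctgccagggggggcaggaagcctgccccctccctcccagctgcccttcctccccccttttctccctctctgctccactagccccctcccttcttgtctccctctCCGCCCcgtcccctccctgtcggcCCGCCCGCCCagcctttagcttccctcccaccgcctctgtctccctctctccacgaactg

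The Aspn promoter had the lowest GC content of the 4, with 31% G or C, against 37.7% for Omd, 42.3% for Ogn and 63.7% for Bgn. The median over all 32851 promoters of the RefSeq table was 52.7%. TATAAA, the TATA-box letters, was present in Aspn, 207 bases before the start on the gene's strand and 178 bases before it on the other strand, and in Ogn, where both strands matched in overlapping letters 229 and 227 bases before the start. TATAAA was present in 13.6% of all promoters. GGGCGG, the GC-box letters, was found only in Bgn among the 6 genes with a promoter in the table (Aspn, Omd, Ogn, Bgn, Prelp and Fmod), at 34, 10 and 6 bases before the start, all on the other strand and the last 2 overlapping, against 35.7% of all promoters. GGAATG, letters bound by TEAD factors, was present in Ogn, 86 bases before the start, and in 14.7% of all promoters. TGANTCA, the AP-1 letters, was in 0 of the 6 and in 7.81% of all promoters. CANNTG, the E-box, which is left in lower case, was in 5 of the 6, the exception being Omd, and in 72.3% of all promoters. These matches are letters in a window and were not tested as sites.

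All signals are log2 values, so equal differences are equal folds, and each log2 ratio, a difference between group means, has a standard error (SE) from limma. Tests were made with limma over all 23332 rows of the array, and adjusted p values are Benjamini-Hochberg values over all rows. On all 6 arrays Dcn was among the brightest genes, between percentile 99.7 and 99.9 of genes, and Omd was dim, between percentile 7.44 and 13. The percentiles describe the probes of each gene and do not rank transcripts. Any 2 arrays correlated with r between 0.968 and 0.988 across genes, which are no independent replicates. Ucp1, a brown fat gene, was at 6.35 and 3.96 in 4 W TAC hearts, 4.4 and 4.18 in 1 W TAC hearts and 8.21 and 4.19 in Sham hearts, so replicate 1 of 4 W TAC and replicate 1 of Sham stood apart in this gene. Values without these 2 arrays are given below for Bgn, Dcn, Prelp, Omd, Ogn and the medians. The ratios to Sham after 4 weeks then rest on 1 mouse in each group. Only 1 of the 2 arrays enters each of the other comparisons. Those after 1 week are thus the ratios without replicate 1 of Sham, and those between the times the ratios without replicate 1 of 4 W TAC.

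All 7 genes had higher mean signals after TAC than after sham operation, at both times, as 57.6% of all genes had after 4 weeks and 51.8% after 1 week. Among class I genes the differences were larger for Aspn and Bgn than for Dcn. After 4 weeks the highest were Aspn (2.61-fold), Bgn (2.34-fold) and Lum (1.8-fold), and after 1 week Aspn (6-fold), Bgn (3.51-fold) and Lum (2.97-fold). With 2 mice per group, 0 of the 7 genes reached an adjusted p under 0.05 in any comparison. In whole tissue, more cells of a type and more RNA per cell cannot be told apart.

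Aspn encodes asporin, which binds collagen and restrains TGF-beta signalling. Its log2 signal was 8.37 and 9.04 in 4 W TAC hearts, 9.61 and 10.2 in 1 W TAC hearts and 7.52 and 7.12 in Sham hearts. The 3 groups did not overlap, with 1 W TAC the highest and Sham the lowest. The log2 ratio to Sham was 1.38 after 4 weeks and 2.58 after 1 week (SE 0.33 each, limma adjusted p = 0.664 and 0.136). Between the times it was -1.2 (4 W TAC to 1 W TAC, SE 0.33, limma adjusted p = 0.632). Among all genes, Aspn stood at percentile 90.7 and 94.6 on the 4 W TAC arrays, 97.3 and 98.3 on the 1 W TAC arrays and 78.7 and 75.6 on the Sham arrays.

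Bgn encodes biglycan, which carries chondroitin or dermatan sulfate chains and, once released from the matrix, binds Toll-like receptors. It had a log2 signal of 10.54 and 11.14 in 4 W TAC hearts, 11.28 and 11.57 in 1 W TAC hearts and 9.67 and 9.56 in Sham hearts. The order of the groups was that of Aspn, again without overlap. Its log2 ratio against Sham was 1.22 after 4 weeks and 1.81 after 1 week (SE 0.25 each, limma adjusted p = 0.61 and 0.141), and that of 4 W TAC to 1 W TAC was -0.58 (limma adjusted p = 0.782). The last value was -0.28 without replicate 1 of 4 W TAC, and also without both arrays of high Ucp1, and -0.88 without replicate 2 of 4 W TAC.

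Dcn encodes decorin, which binds along collagen fibrils, TGF-beta and several receptor tyrosine kinases. Its signal was 12.2 and 12.41 in 4 W TAC hearts, 12.31 and 12.23 in 1 W TAC hearts and 11.83 and 11.7 in Sham hearts. The 4 TAC arrays lay above both Sham arrays, and the TAC groups overlapped. Against Sham, Dcn had a log2 ratio of 0.54 after 4 weeks and 0.51 after 1 week (SE 0.17 each, limma adjusted p = 0.781 and 0.353), and that of 4 W TAC to 1 W TAC was 0.03 (SE 0.17, limma adjusted p = 0.994), or 0.14 without both arrays of high Ucp1.

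**Figure D1:**
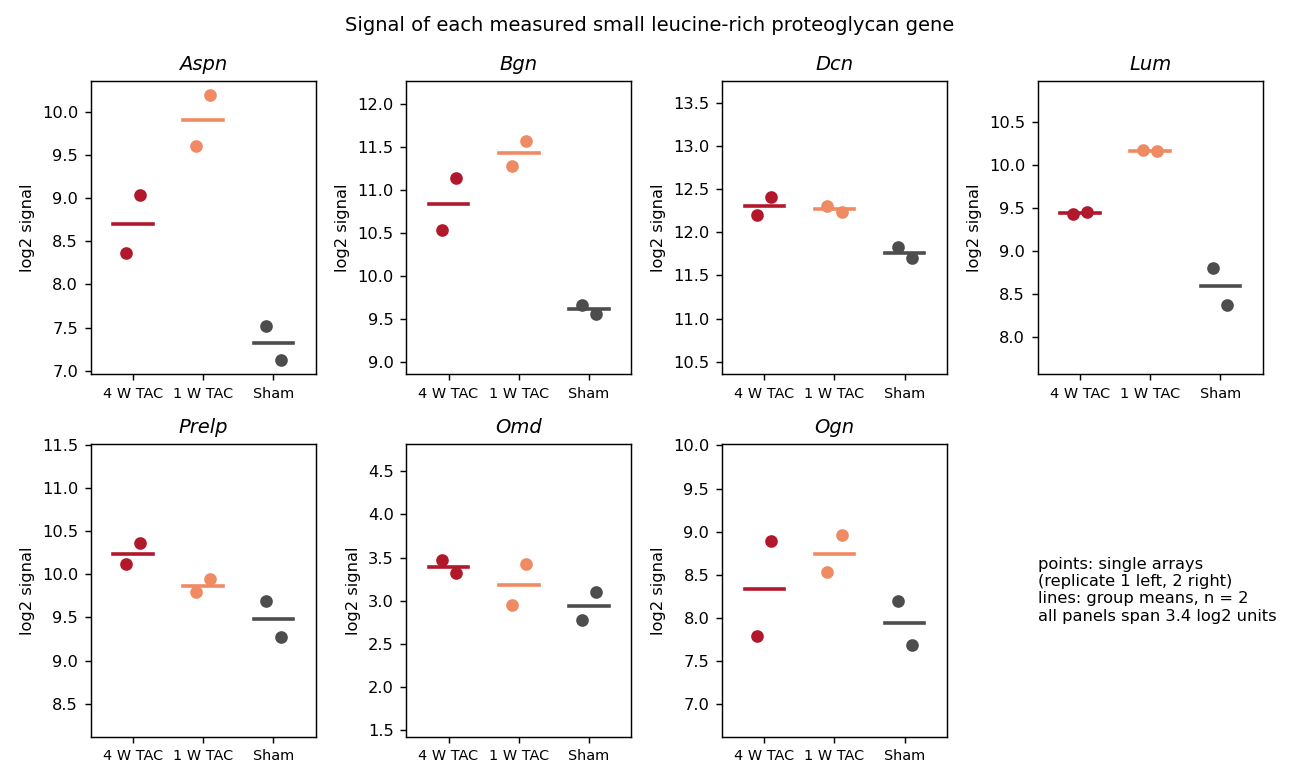
Log2 signal of each measured gene (vertical axis, every panel spanning the same number of log2 units) on the 2 arrays of 4 W TAC, 1 W TAC and Sham (points), with group means as lines. Aspn, Bgn and Lum were highest after 1 week, Prelp was highest after 4 weeks, Dcn overlapped between the times, and the arrays of Ogn after 4 weeks, at 7.79 and 8.89, lay far apart.

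Of the class II genes, Lum had the pattern of Aspn and Bgn, while Prelp had its higher signals after 4 weeks. Lum encodes lumican, which binds collagen fibrils and keeps them thin and evenly spaced. The log2 signal of Lum was 9.43 and 9.45 in 4 W TAC hearts, 10.17 and 10.16 in 1 W TAC hearts and 8.81 and 8.38 in Sham hearts. The 2 arrays of each TAC group lay close together, and no group overlapped another. Relative to Sham, the log2 ratio of Lum was 0.84 after 4 weeks and 1.57 after 1 week (SE 0.2 each, limma adjusted p = 0.662 and 0.136), and that of 4 W TAC to 1 W TAC was -0.73 (limma adjusted p = 0.632).

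Prelp encodes a proteoglycan with an arginine- and proline-rich end that binds heparan sulfate and links basement membranes to collagen. It had signals of 10.12 and 10.36 in 4 W TAC hearts, 9.79 and 9.95 in 1 W TAC hearts and 9.69 and 9.27 in Sham hearts. Here too the groups did not overlap, but 4 W TAC was the highest. For Prelp the log2 ratio to Sham was 0.76 after 4 weeks and 0.39 after 1 week (SE 0.21 each, limma adjusted p = 0.741 and 0.586). Between the times it was 0.37 (limma adjusted p = 0.86). The value after 1 week was 0.18 without replicate 2 of Sham and 0.6 without replicate 1 of Sham. Without both arrays of high Ucp1 the ratio to Sham after 4 weeks was 1.09, with 1 mouse left in each group. The ratio after 1 week was then the same 0.6 as without replicate 1 of Sham.

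Omd encodes osteomodulin, a keratan sulfate proteoglycan known from bone. Its signals were low on every array, with 3.47 and 3.32 in 4 W TAC hearts, 2.95 and 3.42 in 1 W TAC hearts and 2.77 and 3.1 in Sham hearts. The 4 W TAC arrays lay above the Sham arrays, and the 1 W TAC arrays overlapped both groups. The log2 ratio to Sham was 0.46 after 4 weeks and 0.25 after 1 week (SE 0.23 each, limma adjusted p = 0.939 and 0.789), and that of 4 W TAC to 1 W TAC was 0.21 (limma adjusted p = 0.962). Leaving out 1 array moved the ratio after 4 weeks between 0.29 (without replicate 1 of Sham) and 0.62 (without replicate 2 of Sham), and that after 1 week between 0.02 (without replicate 2 of 1 W TAC) and 0.48 (without replicate 1 of 1 W TAC). Without both arrays of high Ucp1 the ratio after 4 weeks was 0.22, with 1 mouse left in each group. The ratio after 1 week was then 0.08, which is its value without replicate 1 of Sham.

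Ogn, the class III gene, encodes osteoglycin (mimecan), another fibril-associated protein. Its signal was 7.79 and 8.89 in 4 W TAC hearts, 8.53 and 8.96 in 1 W TAC hearts and 8.2 and 7.68 in Sham hearts. Only 1 W TAC lay above Sham without overlap, and the 2 mice of 4 W TAC differed more than the group means did. The log2 ratio to Sham was 0.4 after 4 weeks and 0.81 after 1 week (SE 0.41 each, limma adjusted p = 0.981 and 0.552), and that of 4 W TAC to 1 W TAC was -0.4 (limma adjusted p = 0.952). The 4 W TAC value rested on single mice: it was -0.15 without replicate 2 of 4 W TAC, 0.95 without replicate 1 of 4 W TAC and 1.21 without both arrays of high Ucp1. The value after 1 week was 0.54 without replicate 2 of Sham and 1.06 without replicate 1 of Sham.

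After 4 weeks, 6 of the 7 genes lay above Sham without overlap, all but Ogn, against 17.3% of all genes. Of these 6, Omd had low signals on every array, and its lower 4 W TAC array lay 0.22 above its higher Sham array. An unadjusted limma p under 0.05 was reached by 5 genes (Aspn, Bgn, Dcn, Lum and Prelp), against 2.42% of all genes. The median log2 ratio was 0.76 over the 7 genes and 0.04 over all genes. None of the 7 passed after adjustment over all rows, as 0% of the rows did, and none passed when 1 row per gene was fitted, as 0.00673% of genes did. The 7 log2 ratios ran from 0.4 to 1.38, between percentile 93.7 and 99.8 of all genes. Without both arrays of high Ucp1, with 1 mouse left in each group, the median over the 7 genes was 1.09.

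After 1 week, 6 of the 7 genes lay above Sham without overlap, all but Omd, against 22.1% of all genes. Aspn, Bgn, Dcn and Lum reached an unadjusted limma p under 0.05, as did 7.16% of all genes. The median log2 ratio was 0.81 against 0.01 over all genes. After adjustment over all rows 0 of the 7 passed, as did 0% of the rows. When only 1 row per gene was fitted and adjusted, 3 of the 7 passed, Aspn (limma adjusted p = 0.0117), Lum (0.014) and Bgn (0.0154), against 1.41% of all genes. The lowest of the 7 log2 ratios, that of Omd, was 0.25, at percentile 80.3 of all genes. Without both arrays of high Ucp1 the median over the 7 genes was 1.06, which is its value without replicate 1 of Sham.

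Between the times the genes parted. Aspn, Bgn and Lum had lower signals after 4 weeks than after 1 week without overlap, as had 16.6% of all genes, and Prelp had higher ones without overlap, as had 20.3%. Aspn and Lum reached an unadjusted limma p under 0.05 in the lower direction (3.33% of all genes) and 0 of the 7 in the higher one (2.46%). None passed after adjustment in either direction, over all rows (0% higher and 0% lower) or with 1 row per gene fitted (0% of genes higher and 0.0135% lower). The median log2 ratio of 4 W TAC to 1 W TAC was -0.4 over the 7 genes against 0.01 over all genes. Its sign rested on 1 array: it was 0.14 without replicate 1 of 4 W TAC.

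**Figure D2:**
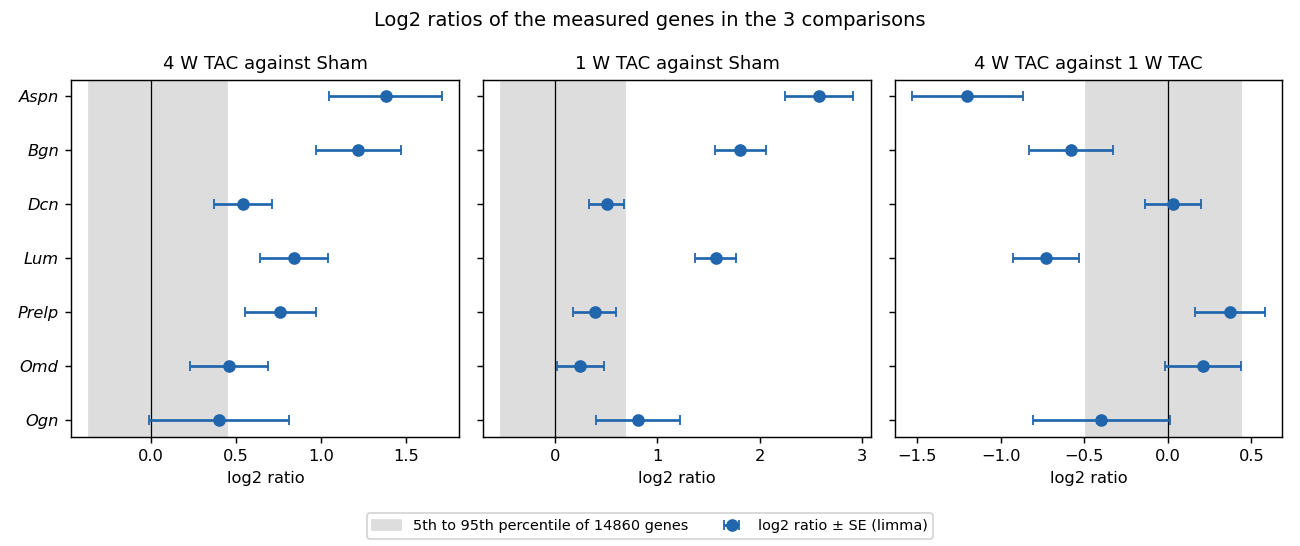
Log2 ratio of each gene (points, horizontal axis) with its limma standard error (bars) in the comparisons of 4 W TAC with Sham, 1 W TAC with Sham and 4 W TAC with 1 W TAC, beside the range from the 5th to the 95th percentile of all 14860 genes (grey). All but Ogn lay right of the grey range after 4 weeks, Aspn, Bgn, Lum and Ogn did so after 1 week, and Aspn, Lum and Bgn lay left of it between the times.

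The log2 ratios of the 7 genes were spread more widely than those of all genes, which was not tested. The standard deviation of the log2 ratio was 0.38 over the 7 genes and 0.27 over all genes after 4 weeks, and 0.87 and 0.41 after 1 week. The 21 pairs of genes were compared by the difference of their signals within each array. Of these, 11 did not overlap Sham after 4 weeks and 16 after 1 week, and 13 did not overlap between the times. Bgn minus Lum overlapped Sham at both times (0.38 and 0.24). The Aspn signal minus the Dcn signal was higher by 0.84 after 4 weeks and by 2.08 after 1 week than in Sham, in both cases without overlap. Bgn minus Dcn was higher than in Sham by 0.68 after 4 weeks and 1.3 after 1 week, also without overlap. The part of the bright signal of Dcn in these differences was not tested. For Lum and Prelp, the difference (Lum minus Prelp) was 0.08 higher than in Sham after 4 weeks with overlapping arrays and 1.18 higher after 1 week without overlap. No share of such pairs over all genes was computed. The exact permutation test of 2 against 2 arrays cannot give a two-sided p below 0.333, so no pair could pass.

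Genes next to the proteoglycan genes were compared with them along the chromosome. On chromosome 13 the order is Ippk, Cenpp, Ecm2, Aspn, Omd, Ogn, Nol8, Iars. The highest ratio at both times was that of Aspn, followed by that of Ecm2. After 1 week Ogn, at 0.81 (SE 0.41), was close to Ecm2, at 0.93 (SE 0.22). Ecm2 encodes another leucine-rich matrix protein, and its log2 signal was 7.75 and 8.05 in 4 W TAC hearts, 7.63 and 7.93 in 1 W TAC hearts and 7.04 and 6.67 in Sham hearts. Its log2 ratio to Sham was 1.05 after 4 weeks and 0.93 after 1 week (SE 0.22 each, limma adjusted p = 0.624 and 0.25). Cenpp, a centromere gene on the opposite strand whose transcribed region spans Ecm2, Aspn, Omd and Ogn, had 0.11 and -0.06 (SE 0.18), with arrays that overlapped Sham at both times. At the edges of the cluster, Ippk had -0.02 after 4 weeks and -0.3 after 1 week, Iars had 0.05 and -0.04, and Nol8 had no row.

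On chromosome 10, Dcn and Lum are followed by Kera and Epyc, which encode proteoglycans of cornea and cartilage. Kera lay below Sham at both times without overlap, as did 12.9% of all genes after 4 weeks and 20.4% after 1 week, with log2 ratios of -0.49 after 4 weeks and -0.42 after 1 week (SE 0.23), and Epyc above it, with 0.19 and 0.35 (SE 0.16). Both had low signals, at 3.25 to 4.14 for Kera and 3.77 to 4.18 for Epyc over the 6 arrays. On chromosome 1, Optc, next to Prelp, had 0.14 and 0.08 (SE 0.21) with overlap, and Btg2, beyond Fmod, had 0.56 and 0.61 (SE 0.18) without overlap. On the X chromosome, the neighbours of Bgn were Haus7, with -0.28 after 4 weeks and -0.17 after 1 week, and Atp2b3, with 0.1 and 0.08. Beyond Haus7, Trex2 had 0.75 and 0.78 (SE 0.5) with arrays that overlapped Sham.

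**Figure D3:**
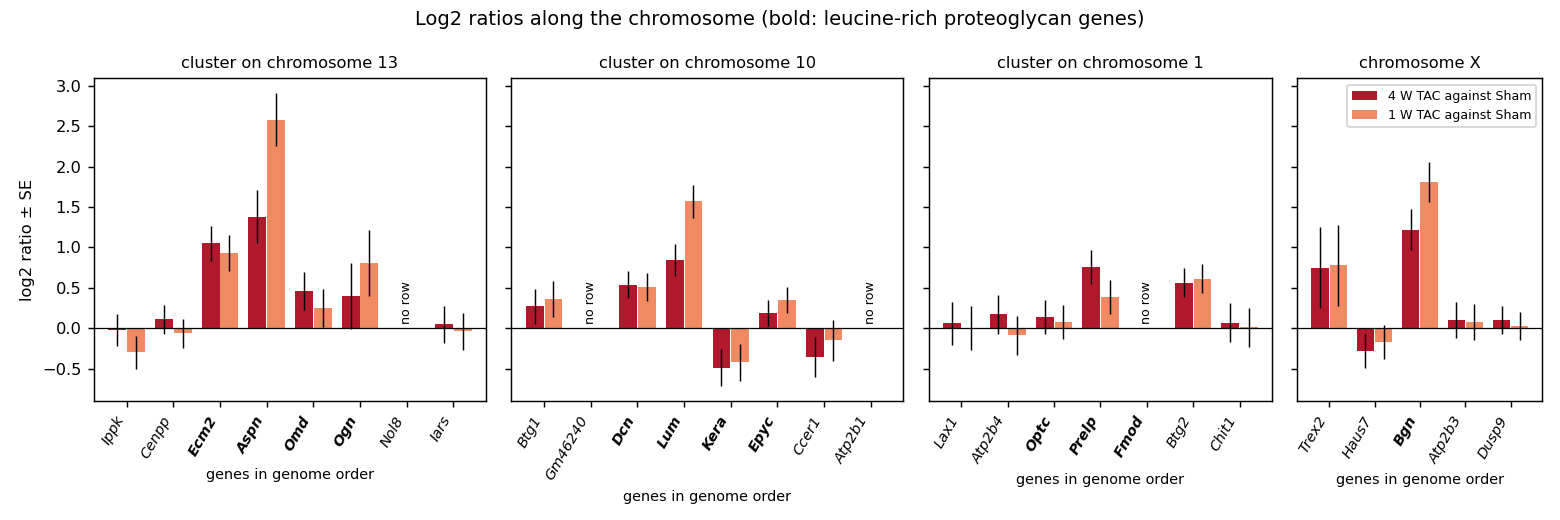
Log2 ratio to Sham (bars, vertical axis) with its standard error for the proteoglycan genes (bold) and their neighbours in genome order, after 4 weeks and 1 W TAC, with genes that have no row marked. On chromosome 13 the bars of Ecm2 and Aspn stand out from those of Ippk, Cenpp and Iars, and on the X chromosome Bgn has 1.22 and 1.81 while Atp2b3 has 0.1 and 0.08.

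Of 10 other leucine-rich matrix proteins, 8 were measured, with a median log2 ratio to Sham of 0.17 after 4 weeks and 0.15 after 1 week. None of the 8 passed after adjustment, and an unadjusted limma p under 0.05 was reached by 2 in the higher direction after 4 weeks (2.42% of all genes) and by 1 in each direction after 1 week (7.16% of all genes higher and 4.87% lower). None passed with 1 row per gene fitted. Besides Ecm2, Kera, Epyc and Optc, these were Podn (0.43 after 4 weeks and 0.23 after 1 week, SE 0.16), Podnl1 (0.29 and 0.27, SE 0.24), Nyx (-0.01 at both times) and Chad. Chad encodes chondroadherin, a cartilage protein, and had log2 signals of 7.06 and 6.84 in 4 W TAC hearts, 6.31 and 6.12 in 1 W TAC hearts and 7.86 and 6.63 in Sham hearts. Its 1 W TAC arrays lay below the other groups.

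The enzymes that build the sugar chains had median log2 ratios below those of the proteoglycan genes. Of 22 enzymes of chondroitin and dermatan sulfate synthesis 19 were measured, with a median log2 ratio to Sham of 0.18 after 4 weeks and 0.32 after 1 week. Higher than Sham without overlap were 9 of the 19 after 4 weeks (17.3% of all genes) and 11 after 1 week (22.1%). An unadjusted limma p under 0.05 was reached in the higher direction by 2 after 4 weeks (2.42% of all genes) and 3 after 1 week (7.16%). Over all rows 0 passed after adjustment. With 1 row per gene fitted 1 of the 19 did after 1 week (1.41% of all genes), Dse (limma adjusted p = 0.0422). Dse, the epimerase that turns chondroitin into dermatan sulfate, had log2 signals of 5.5 and 5.98 in 4 W TAC hearts, 6.04 and 6.58 in 1 W TAC hearts and 5.09 and 4.77 in Sham hearts, without overlap with Sham at either time. Its log2 ratio to Sham was 0.81 after 4 weeks and 1.38 after 1 week (SE 0.28 each, limma adjusted p = 0.827 and 0.198). Chst12, a sulfotransferase, had 0.19 and 0.7 (SE 0.36), and Chpf, a chain polymerizing factor, had 0.21 and 0.65 (SE 0.2). The 7 keratan sulfate enzymes, all measured, had medians of 0.09 after 4 weeks and 0.08 after 1 week, with B4galt1 at 0.24 and 0.49, Chst2 at 0.26 and 0.34 and B3gnt2 at 0.55 and 0.31.

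Of 14 proteases and helpers that cut or process the core proteins 13 were measured, with medians of 0.13 after 4 weeks and 0.17 after 1 week. Unadjusted limma p values under 0.05 were reached in the higher direction by 3 genes after 4 weeks (2.42% of all genes) and 3 after 1 week (7.16%), and in the lower direction by 1 after 1 week (4.87%). Over all rows 0 passed after adjustment. With 1 row per gene fitted 3 did after 1 week (1.41% of all genes), Mmp14 (limma adjusted p = 0.0034), Mmp2 (0.0163) and Bmp1 (0.0422). Mmp14, a membrane-bound metalloproteinase, had log2 signals of 7.03 and 7.1 in 4 W TAC hearts, 8.5 and 8.99 in 1 W TAC hearts and 6.41 and 6.31 in Sham hearts. Its groups did not overlap. Mmp2, which Mmp14 activates, had log2 ratios to Sham of 1.38 after 4 weeks and 1.85 after 1 week (SE 0.26), and Bmp1, which removes the propeptides of biglycan and of fibrillar collagens, had 0.5 and 1.28 (SE 0.26).

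The partners of these proteins on the fibril had larger median log2 ratios than the proteoglycan genes, although the ratios of single genes of both lists overlapped. Of 15 collagens and other fibril partners 13 were measured, with medians of 1.2 after 4 weeks and 2.81 after 1 week. All 13 lay above Sham without overlap after 4 weeks (17.3% of all genes) and 12 of 13 after 1 week (22.1%), where Tnxb, named here after its values were seen, had -0.29 (SE 0.19). An unadjusted limma p under 0.05 was reached by 10 after 4 weeks (2.42% of all genes) and 12 after 1 week (7.16%). Over all rows 0 passed after adjustment, and with 1 row per gene fitted 12 of the 13 did after 1 week (1.41% of all genes) and 0 after 4 weeks. Fn1, which encodes fibronectin, had log2 signals of 9.29 and 9.86 in 4 W TAC hearts, 11.32 and 11.77 in 1 W TAC hearts and 8.06 and 7.94 in Sham hearts. Its log2 ratio to Sham was 1.58 after 4 weeks and 3.54 after 1 week (SE 0.27 each, limma adjusted p = 0.575 and 0.0587). Col1a1, which encodes a chain of type I collagen, had 1.56 and 3.33 (SE 0.25), and Col12a1, which encodes a fibril-associated collagen, had 2.37 and 3.13 (SE 0.47). Between the times 11 of the 13 were lower after 4 weeks without overlap (16.6% of all genes) and 1 was higher (20.3%), with a median of -1.38.

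Among growth factors and receptors that these proteoglycans bind or act on, 22 of 23 were measured, with medians of 0.43 after 4 weeks and 0.67 after 1 week. Higher than Sham without overlap were 16 after 4 weeks (17.3% of all genes) and 16 after 1 week (22.1%), and 2 lay lower after 1 week (20.4%), Tgfbr3 and Bmp4, named after their values were seen. An unadjusted limma p under 0.05 was reached in the higher direction by 6 after 4 weeks (2.42% of all genes) and 15 after 1 week (7.16%). Over all rows 0 passed after adjustment, and with 1 row per gene fitted 5 did after 1 week (1.41% of all genes). Ccn2, a matricellular growth factor, had log2 signals of 10.28 and 11 in 4 W TAC hearts, 11.2 and 11.69 in 1 W TAC hearts and 8.98 and 8.98 in Sham hearts. The log2 ratio to Sham of Tgfb3 was 0.88 after 4 weeks and 1.8 after 1 week (SE 0.27), and that of Tgfb2 was 1.16 and 1.79 (SE 0.32).

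**Figure D4:**
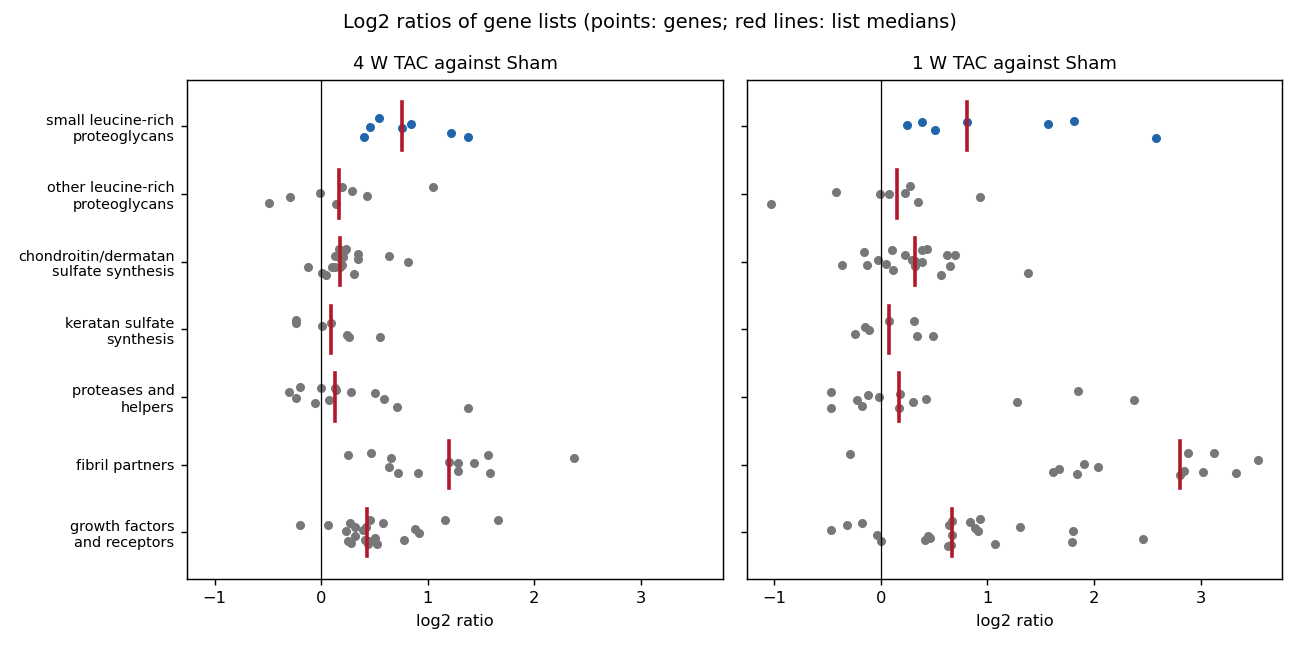
Log2 ratio to Sham (horizontal axis) of the 7 proteoglycan genes (blue points) and of the genes of 6 related lists (grey points), with the median of each list as a red line, after 4 weeks and 1 W TAC. The medians of the fibril partners, 1.2 and 2.81, lie right of those of the proteoglycan genes, 0.76 and 0.81, and those of the chondroitin and dermatan sulfate enzymes, 0.18 and 0.32, lie left of them.

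The 5 genes whose profile over the 6 arrays lay nearest to the mean profile of the 7 genes, by the root mean square difference after centring each gene on its own mean, were Ltbp3 (0.0442), Egr2 (0.0693), Gpc6 (0.0724), Adcy7 (0.073) and Pfkp (0.0766). The mean profile was -0.03 and 0.35 on the 4 W TAC arrays, 0.35 and 0.62 on the 1 W TAC arrays and -0.52 and -0.76 on the Sham arrays. The 7 genes themselves were 0.244 (Lum) to 0.612 (Aspn) away from it. Ltbp3, which encodes a latent TGF-beta binding protein, had log2 ratios to Sham of 0.76 after 4 weeks and 1.09 after 1 week (SE 0.23), and Gpc6, a cell surface proteoglycan, had 0.79 and 1 (SE 0.24).

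Markers of several cell types differed between the groups beside the proteoglycan genes. The mean log2 signal of 10 fibroblast markers, none of them a matrix gene, was 6.97 and 7.03 in 4 W TAC hearts, 7.19 and 7.28 in 1 W TAC hearts and 6.68 and 6.51 in Sham hearts, with median log2 ratios to Sham of 0.21 after 4 weeks and 0.59 after 1 week. Of these 10 markers, 4 lay above Sham without overlap after 4 weeks (17.3% of all genes) and 8 after 1 week (22.1%), and Scara5 lay below it at both times (12.9% and 20.4%). The 6 measured macrophage markers of 7 had means of 6.83 and 7.16 in 4 W TAC hearts, 7.73 and 8.2 in 1 W TAC hearts and 6.74 and 6.44 in Sham hearts. The means of both lists were highest after 1 week, as Aspn, Bgn and Lum were. Single fibroblast markers were divided between the times. Of the 10, 5 were lower after 4 weeks than after 1 week without overlap (16.6% of all genes) and 2 were higher (20.3%). All 6 macrophage markers were lower after 4 weeks than after 1 week without overlap (16.6% of all genes). Above Sham without overlap lay 3 of them after 4 weeks (17.3% of all genes) and all 6 after 1 week (22.1%). The 6 measured of 8 markers of tendon, cartilage and valve, tissues rich in these proteoglycans, had means of 6.57 and 6.7 in 4 W TAC hearts, 6.63 and 6.62 in 1 W TAC hearts and 5.81 and 5.99 in Sham hearts. Between the times this list was divided. Tnmd and Comp were higher after 4 weeks than after 1 week without overlap (log2 ratios of 0.75 and 0.74, 20.3% of all genes). Scx, Sox9 and Col2a1 were lower without overlap (-0.79, -0.38 and -0.18, 16.6% of all genes), and Acan overlapped (-0.05).

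Cardiomyocyte markers were bright on every array, with a mean over the 3 measured of 7 (Tnnt2, Ryr2 and Myl2, of which Myl2 is the ventricular one) between 12.32 and 12.52. The 2 measured atrial markers of 3 had means of 6.9 and 7.64 in 4 W TAC hearts, 5.93 and 5.52 in 1 W TAC hearts and 6.46 and 6.69 in Sham hearts. The 8 smooth muscle and pericyte markers had means of 8.19 to 8.58, the 6 endothelial markers of 8.74 to 9.01 and the 7 mesothelial markers of 4.71 to 5.08 over the 6 arrays. The smooth muscle and pericyte mean hid members that went different ways. After 4 weeks 2 lay above Sham without overlap (17.3% of all genes) and 4 below (12.9%), and after 1 week 3 above (22.1%) and 1 below (20.4%). Cnn1 had log2 ratios to Sham of -0.29 after 4 weeks and 1.51 after 1 week, and Myh11 had -0.43 and -0.9. The 2 measured erythroid markers of 4 had means of 5.94 and 6.14 in 4 W TAC hearts, 5.57 and 5.92 in 1 W TAC hearts and 6.47 and 6.56 in Sham hearts, so both TAC groups lay below Sham. The 2 measured Schwann cell markers of 4 had means of 5.8 to 6.06. The 7 adipocyte markers, Ucp1 among them, had means of 5.72 and 5.07 in 4 W TAC hearts, 4.96 and 4.94 in 1 W TAC hearts and 5.85 and 5.07 in Sham hearts. The part of these cell types in the ratios of the proteoglycan genes was not tested.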

How the data were processed

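RNA of the left ventricle was hybridized to Affymetrix Mouse Exon 1.0 ST arrays. The authors deposited gene-level log2 signals, made with RMA (background correction, quantile normalization, probe summary) in Affymetrix Expression Console, and these were used as given. The sources differ on the RNA extraction (Trizol by the labels, a column kit by the methods). For the program version and the genome build of the rows, the sources used here give nothing.

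Of 23332 rows, 14996 carried 1 gene symbol, 1019 several and 7317 none, and the brightest row of each gene gave 14860 genes. One mean per group was fitted over all rows and all 6 arrays with limma 3.58.1 in R 4.3.3 (lmFit and eBayes, 3 residual and 2.68 prior degrees of freedom), and plots used Python 3.11.15 with matplotlib 3.10.9. An adjusted p under 0.05 passed. A run on simulated rows with known changes checked only that the mean log2 ratios put in came back, and not the calls. Replicates were separate mice, and the number of arrays limits the precision. Dim rows were kept, and the study's detection filter was not repeated. No batch is named in the labels.

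The proteoglycan genes and all gene lists were chosen with earlier results of these data known, so their counts are descriptions and no list was tested. The text names every proteoglycan gene, the measured other leucine-rich genes, the 3 genes of each related list with the highest absolute log2 ratio at 1 W TAC, genome neighbours and the 5 nearest profiles. Values of single marker genes (Ucp1, Scara5, Cnn1, Myh11 and those of tendon, cartilage and valve) were added after their values were seen. Alternatives were 1 row per gene, other scalings, a signal filter, a replicate block, the mean of all rows of a gene, the methods' t-test and leaving out single arrays. Leaving out both arrays of high Ucp1 was added after seeing the data.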

Additional observations from a re-analysis of the deposited data

How the results depend on the processing

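The 7 genes kept a positive log2 ratio to Sham in all settings that gave a value, except Ogn at 4 W TAC, which was -0.15 without replicate 2 of 4 W TAC (range without 1 array -0.15 to 0.95). The count of genes with adjusted p under 0.05 was 0 in each comparison over all rows. At 1 W TAC it was 3 (Aspn, Bgn and Lum) when 1 row per gene was fitted, against 1.41% of all genes in the higher direction. It was also 3 among the 11665 rows above the median signal, where 6 of the genes remained. Fewer rows enter the adjustment in both. The methods' t-test without adjustment, with its fold limit of 1.5, counted 3 genes at 1 W TAC and 1 between the times, and 0 after Benjamini-Hochberg adjustment. For the rows above the median signal and for the t-test no share over all genes is given, so these counts have no background. Leaving out 1 array gave medians over the 7 genes of 0.62 to 0.97 at 4 W TAC, 0.54 to 1.06 at 1 W TAC and -0.73 to 0.14 for 4 W TAC against 1 W TAC. Without both arrays of high Ucp1 these medians were 1.09, 1.06 and 0.14. The first rests on 1 mouse in each group. The other values are those without replicate 1 of Sham (1.06) and without replicate 1 of 4 W TAC (0.14). Between the times, signs turned for Dcn (-0.07 and -0.01 without 1 array, range -0.07 to 0.14, and -0.05 after a new quantile normalization), for Ogn (0.15 without replicate 1 of 4 W TAC, with or without replicate 1 of Sham, range -0.95 to 0.15) and for Omd (-0.02, range -0.02 to 0.44), and the cause was not tested. With a replicate block 0 genes passed in each comparison. The differences between replicate 1 and replicate 2 were little correlated between groups across genes (r = 0.15 for 4 W TAC and 1 W TAC, -0.27 for 4 W TAC and Sham, -0.2 for 1 W TAC and Sham). With 1 such difference per group, these values cannot show whether equal numbers pair the mice, and the labels name no pairing. The low signal of Omd limits what can be said of it.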
